A study of Mus musculus with 4 samples.

Results

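The mitochondrial ribosomal protein genes were followed as the 76 genes of 23847 deposited rows whose symbol starts with Mrpl or Mrps and a number. They were read apart as 47 genes of the large (Mrpl) and 29 of the small subunit (Mrps). Polyadenylated RNA was sequenced from ventricles of C57BL/6 male mice at postnatal day 21. In 2 libraries Cdk8, the cyclin-dependent kinase of the Mediator complex, was overexpressed specifically in the heart (Cdk8Tg), and 2 libraries were wild type (WT). The labels name neither the promoter behind the transgene nor whether a library stands for 1 animal, and p-values therefore cover no more than the spread among these 4 libraries, part of which may be technical.

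Mitochondrial ribosomes translate the few proteins encoded by mitochondrial DNA, all of them subunits of the respiratory chain and ATP synthase. Their RNA comes from mitochondrial DNA, whereas every protein of both subunits is encoded in the nucleus, made in the cytosol and imported. The small subunit binds and decodes the messenger RNA and the large subunit joins amino acids. Many of the proteins descend from bacterial ribosomal proteins, others are found only in mitochondria. Heart muscle is rich in mitochondria, and its respiratory complexes need both nuclear and mitochondrial gene products.

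The unit was FPKM, an abundance scaled for transcript length and library depth, so levels can be compared between genes. Cdk8 was at 7309 and 8122 FPKM in Cdk8Tg against 7.89 and 9.86 FPKM in WT. Depth, read from the spacing of the lowest values, came to 11.7 to 12.2 M (mega) fragments in Cdk8Tg and 13.8 M in both WT libraries, provided that FPKM were scaled by library totals, a point the labels leave unsaid. Cardiomyocyte markers, abundant in all libraries, summed to 36426 to 37840 FPKM in Cdk8Tg and 53513 to 55853 FPKM in WT over 8 genes. Genes averaging 1 FPKM or more were tested with limma on log2(FPKM + 1), and a gene is said to have risen or fallen where its Benjamini-Hochberg adjusted p was under 0.05. Of 11888 rows tested, 16.9% rose and 7.98% fell, and the median log2 change was 0.13. All 76 members passed the filter.

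A minority of the members fell in the Cdk8Tg ventricles and few rose. In the large subunit 13 of 47 genes fell (27.7%) and 2 rose (4.26%), and in the small subunit 8 of 29 fell (27.6%) and 1 rose (3.45%), beside the 7.98% and 16.9% of all rows. The median log2 change was -0.21 in the large and -0.14 in the small subunit. The remaining 32 and 20 genes did not pass the test. A log2 change below 0 was found in 34 of 47 and 19 of 29 genes, beside 33.9% of all rows. Both Cdk8Tg values lay below both WT values in 29 large and 17 small subunit genes, and above them in 7 and 3, beside 21.1% and 49.2% of all rows. In bulk tissue, fewer cells of a type and less RNA per cell cannot be told apart. The deepest changes were those of Mrpl23, Mrpl42 and Mrps28, whose FPKM was 53.6%, 50.7% and 50.4% below the WT mean. The largest rise was that of Mrps6, at 1.72 times the WT mean. The number of calls moved when a library was left out, in fits with 1 residual degree of freedom in which calls over all rows went from 2958 to between 287 and 2380. Without WT replicate 2, 0 large subunit genes were called by limma (19 at an unadjusted p under 0.05) and 1 small subunit gene, and without WT replicate 1 the numbers were 2 and 2. Without Cdk8Tg replicate 2 they were 4 and 6, and without Cdk8Tg replicate 1 they were 11 and 8. The median log2 change without WT replicate 2 was -0.27 in the large and -0.15 in the small subunit, and over the 4 fits it ran from -0.27 to -0.11 and from -0.19 to -0.096. With no filter on low values, 5 large and 7 small subunit genes were called, and 1055 of all rows. The authors' deposited table, at a q-value under 0.05, held 13 falls and 0 rises in the large subunit (23 and 0 at an unadjusted p under 0.05) and 6 falls and 1 rise in the small one, beside 8.43% falls and 5.53% rises of the genes it tested. It shared 12 of its large subunit falls, all 6 small subunit falls and the rise of Mrps6 with limma. It added Mrpl55 and lacked Mrpl48, Mrps14, Mrps24, Mrpl10 and Mrpl49. The group FPKM of that table stood on another scale than the FPKM per library. Its median log2 change was -0.0038 over all genes, -0.36 in the large and -0.30 in the small subunit. From the FPKM per library, called the deposited scale here, these medians were 0.13, -0.21 and -0.14. Differences in calls may therefore come from the scale as well as from the test.

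**Figure D1:**
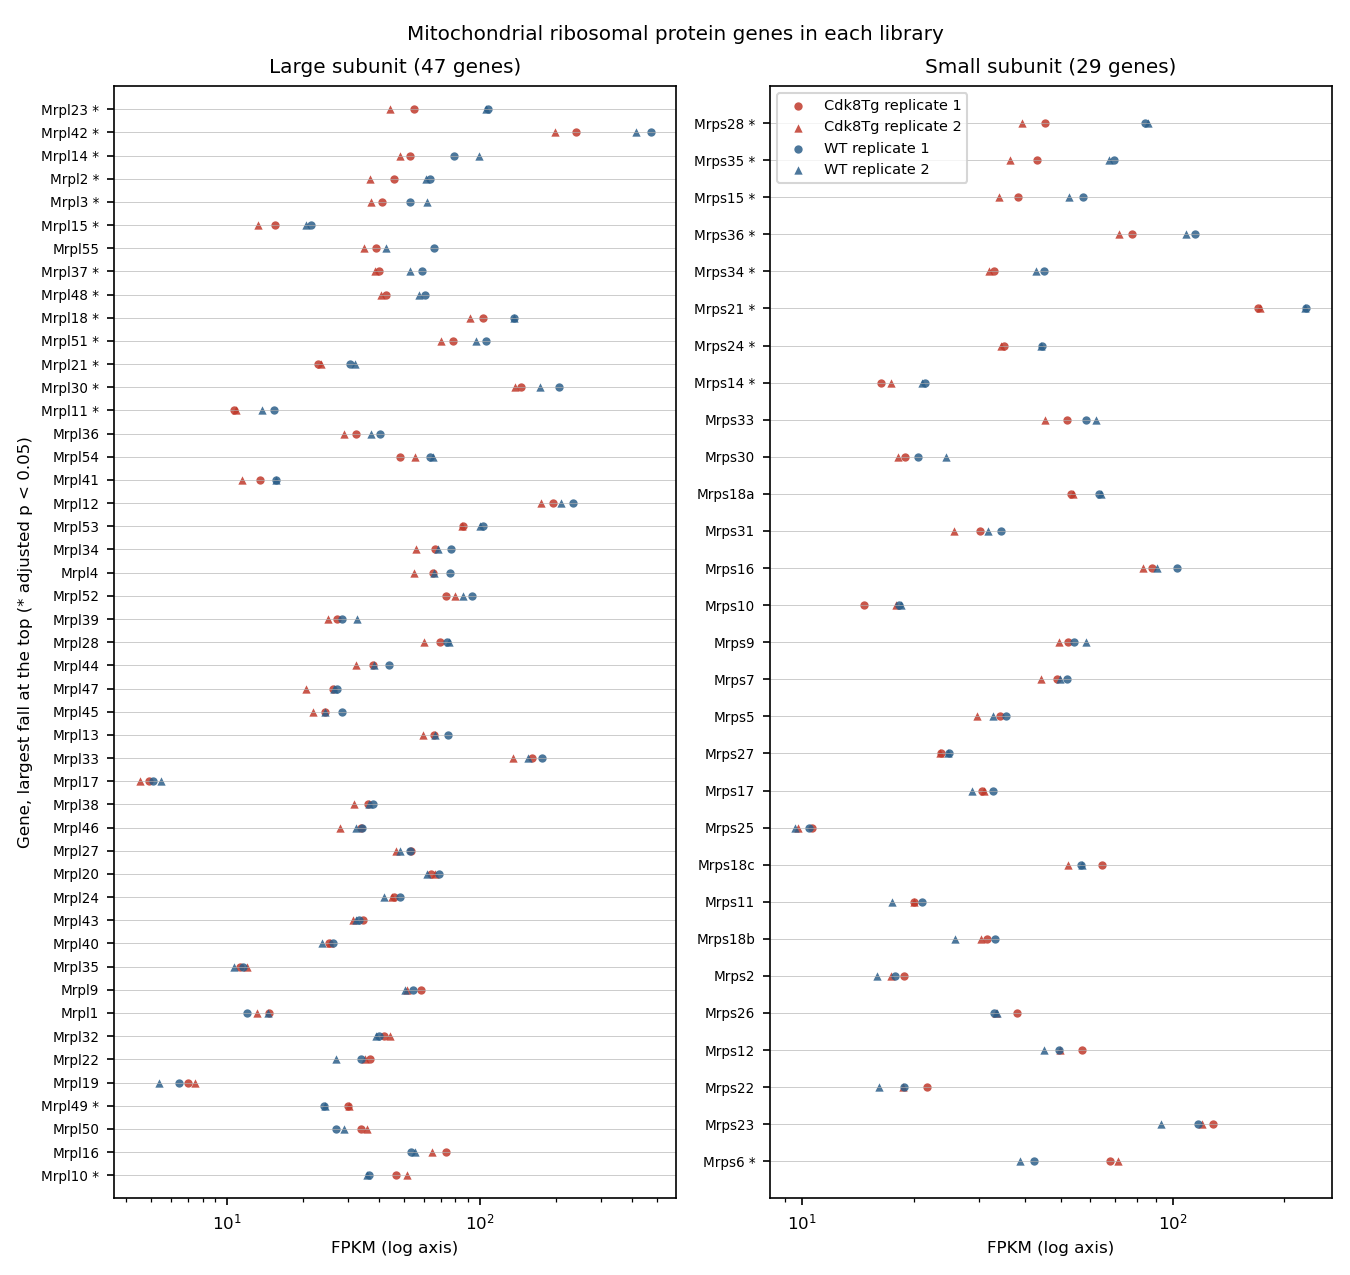
FPKM (log axis) of each mitochondrial ribosomal protein gene in the 4 libraries, with the large subunit on the left, the small subunit on the right and the largest fall at the top. Red marks are Cdk8Tg and blue marks WT libraries, and an asterisk marks an adjusted p under 0.05; the Cdk8Tg marks of Mrpl23, Mrpl42 and Mrps28 lie far to the left of the WT marks, and those of Mrps6 to the right.

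How the libraries were scaled set part of this picture. Median-of-ratios scaling, which brought the median of all rows from 0.13 to -0.011, gave 19 falls and 0 rises in the large subunit (31 and 1 at an unadjusted p under 0.05) and 10 falls and 1 rise in the small one, with 12.1% of all rows falling and 7.58% rising (19.7% in either direction). Scaling to an equal FPKM sum moved that median to 0.30 and gave 9 falls and 7 rises in the large and 4 falls and 5 rises in the small subunit, beside 5.49% and 41.2% of all rows. Quantile normalization gave 12 falls and 1 rise and 8 falls and 1 rise, beside 8.74% and 8.34%. Relative to the median of all rows, the median of the large subunit was -0.34 as deposited, -0.36 with median-of-ratios scaling, -0.32 with the equal sum and -0.25 with quantile normalization. For the small subunit the same distances were -0.27, -0.29, -0.25 and -0.17. All 13 large and 8 small subunit falls were also called after median-of-ratios scaling, and 9 and 4 of them on the equal-sum scale. Of the 3 rises, Mrps6 was called on each of these scales, whereas Mrpl10 and Mrpl49 were not called after median-of-ratios scaling.

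**Figure D2:**
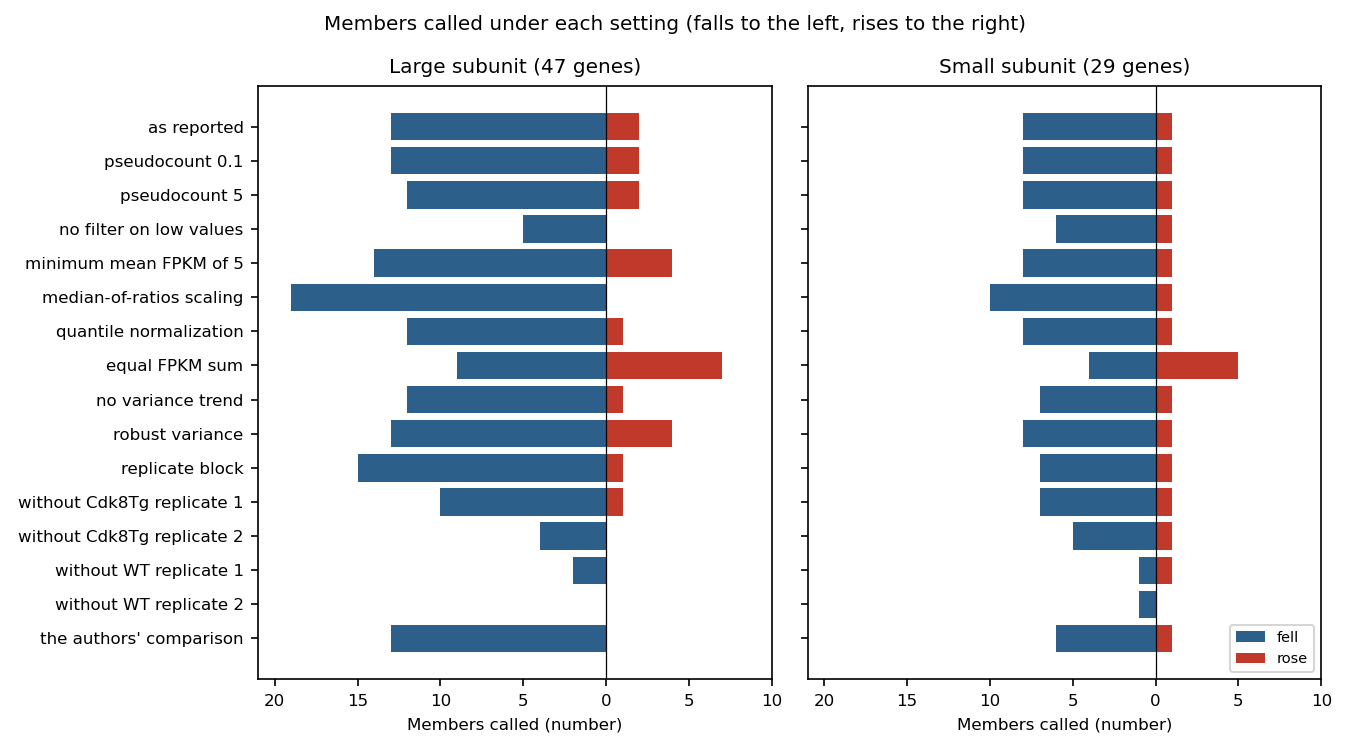
Number of large subunit (left) and small subunit (right) genes called as falls (blue, to the left of 0) and rises (red, to the right of 0) by each way of processing the values. The deposited scale gave 13 falls and 2 rises in the large subunit, median-of-ratios scaling 19 and 0, and the equal FPKM sum 9 and 7.

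The genes at both ends of the change are shown with their promoters, as nuclear genes of 1 complex with changes of opposite sign. Each line gives RefSeq sequence of GRCm38.p6 from 250 bases before to 50 bases after the annotated start, 5′ to 3′ on the gene's strand. The largest falls with an entry in that table were Mrpl23 (chr7:142532782-142533081, plus strand), Mrpl42 (chr10:95501900-95502199, minus strand) and, for the small subunit, Mrps15 (chr4:126046678-126046977, plus strand). The rises shown are Mrpl10 (chr11:97041332-97041631, plus strand) and Mrps6 (chr16:92058086-92058385, plus strand). Capitals mark matches to 1 of 6 motifs or, on the other strand, to their reverse complements, and matches may overlap: GCATGCGC (a core of the NRF1 motif), CCGGAAG (ETS factors such as GABP), AAGATGGC (YY1), CACGTG (the E-box), GGGCGG (the GC box of Sp1) and TATAAA (the TATA box).
Mrpl23: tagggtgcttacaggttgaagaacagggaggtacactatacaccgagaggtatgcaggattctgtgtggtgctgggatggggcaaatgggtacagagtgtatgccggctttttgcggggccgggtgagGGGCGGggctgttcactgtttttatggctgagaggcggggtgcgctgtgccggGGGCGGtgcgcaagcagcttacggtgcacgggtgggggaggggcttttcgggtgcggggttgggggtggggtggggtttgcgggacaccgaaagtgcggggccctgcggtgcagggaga
Mrpl42: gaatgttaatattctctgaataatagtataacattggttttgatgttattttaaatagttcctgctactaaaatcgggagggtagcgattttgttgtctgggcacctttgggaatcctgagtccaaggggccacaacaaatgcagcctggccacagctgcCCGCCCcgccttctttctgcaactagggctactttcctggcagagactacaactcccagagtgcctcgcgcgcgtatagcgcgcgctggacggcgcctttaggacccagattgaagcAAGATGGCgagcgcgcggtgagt
Mrps15: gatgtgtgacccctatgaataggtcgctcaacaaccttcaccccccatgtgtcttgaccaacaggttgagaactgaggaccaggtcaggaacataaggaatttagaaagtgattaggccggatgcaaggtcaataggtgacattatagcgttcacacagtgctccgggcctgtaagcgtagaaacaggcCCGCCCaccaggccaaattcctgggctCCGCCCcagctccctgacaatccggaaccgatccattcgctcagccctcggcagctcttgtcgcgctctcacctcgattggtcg
Mrpl10: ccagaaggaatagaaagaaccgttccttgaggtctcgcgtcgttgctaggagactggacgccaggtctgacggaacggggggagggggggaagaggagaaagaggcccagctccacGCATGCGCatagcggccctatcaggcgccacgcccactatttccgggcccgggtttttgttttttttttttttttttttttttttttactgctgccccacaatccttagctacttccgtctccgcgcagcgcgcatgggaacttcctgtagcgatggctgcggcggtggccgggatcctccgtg
Mrps6: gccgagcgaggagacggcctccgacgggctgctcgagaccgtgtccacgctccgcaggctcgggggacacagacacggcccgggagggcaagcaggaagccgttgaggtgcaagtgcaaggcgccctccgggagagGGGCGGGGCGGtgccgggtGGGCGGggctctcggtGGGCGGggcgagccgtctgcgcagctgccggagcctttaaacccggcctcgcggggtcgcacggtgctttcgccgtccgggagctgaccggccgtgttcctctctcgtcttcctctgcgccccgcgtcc

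None of these 5 promoters held the TATAAA letters, CCGGAAG or CACGTG in this window. GC boxes were matched in Mrpl23, Mrpl42, Mrps15 and Mrps6, the AAGATGGC letters in Mrpl42 just after its start, and the NRF1 core in Mrpl10. Promoter entries matched 67 of the 76 members by symbol. The median GC content of the windows was 58.3% in these members, 61% in the tested genes and 52.7% in all genes with an entry. The part of base composition in the shares below was not tested. CCGGAAG was found in 35.8% of these members, against 20.3% of 8777 tested genes and 9.93% of 27025 genes with an entry. AAGATGGC was found in 17.9%, 5.43% and 3.19% in the same order, and GCATGCGC in 11.9%, 6.23% and 3.05%. The GC box letters stood in 49.3% of the members, 69.9% of the tested genes and 38.2% of all genes. The TATA box was present in 7.46%, 8.91% and 15.7%, and CACGTG in 7.46%, 12.0% and 8.09%. Among members that fell, 6 of 17 held CCGGAAG, 3 held AAGATGGC, 0 held GCATGCGC and 12 held the GC box, and among members not called 18, 8, 7 and 19 of 47 did. These are counts of letters, not of sites where a factor was shown to bind.

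In the large subunit the falls included relatives of bacterial proteins and proteins found only in mitochondria. Mrpl23, the relative of the bacterial protein at the exit of the peptide tunnel, stood at 55.1 and 44.0 FPKM in Cdk8Tg against 107.4 and 105.9 FPKM in WT. Both Cdk8Tg libraries lay far below both WT libraries. The log2 change was -1.10 ± 0.12 (SE, n = 2 per group; limma, Benjamini-Hochberg adjusted p = 0.0068). The gene (ENSMUSG00000037772.13) lies on chromosome 7 at 142532686 to 142540747 of GRCm38. Of its 31-base stretches, 14.2% also occur in other genes, mainly its processed pseudogene.

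Mrpl42, a protein with no bacterial relative, was the most abundant member. It was at 240 and 197 FPKM in Cdk8Tg against 473 and 416 FPKM in WT, so the groups did not overlap. Its log2 change was -1.02 ± 0.13 (SE, n = 2 per group; limma, Benjamini-Hochberg adjusted p = 0.0087). It lies on chromosome 10 at 95480805 to 95501940 of GRCm38. Mrpl14, which faces the small subunit in bacterial ribosomes, was at 53.1 and 48.2 FPKM in Cdk8Tg against 79.3 and 99.3 FPKM in WT, a log2 change of -0.80 ± 0.13 (SE, n = 2 per group; limma, Benjamini-Hochberg adjusted p = 0.015). Its WT libraries differed from each other by less than they did from Cdk8Tg. Its exons overlap those of Tmem63b on the opposite strand by 106 bases, and Tmem63b changed by -0.77 and was called as well.

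Mrpl2 and Mrpl3, relatives of bacterial proteins near the site where peptide bonds are made, and Mrpl15, also of bacterial descent, fell by 0.59, 0.54 and 0.52 on the log2 scale. Mrpl2 was at 45.7 and 36.9 FPKM in Cdk8Tg against 63.6 and 61.3 FPKM in WT. Mrpl3 was at 41.0 and 37.0 against 52.8 and 62.0 FPKM. Mrpl15 was at 15.5 and 13.3 against 21.5 and 20.6 FPKM. In each of these genes both Cdk8Tg values were below both WT values. The remaining 7 large subunit falls were Mrpl37, Mrpl48, Mrpl18, Mrpl51, Mrpl21, Mrpl30 and Mrpl11, with log2 changes between -0.51 and -0.40. Mrpl30, the third most abundant large subunit gene at 146 and 137 against 205 and 173 FPKM, was close to the threshold (limma, Benjamini-Hochberg adjusted p = 0.048). Mrpl48 overlaps Rab6a on the opposite strand by 708 exon bases, and Rab6a changed by 0.43 without a call.

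Mrpl55, which the authors' deposited table listed as a fall, was at 38.8 and 34.8 against 65.5 and 42.4 FPKM. Its WT libraries differed widely, and its log2 change of -0.51 was not called (limma, Benjamini-Hochberg adjusted p = 0.12).

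The large subunit rises were small. Mrpl10, a protein at the base of the stalk that recruits translation factors, was at 46.6 and 51.3 FPKM in Cdk8Tg against 36.3 and 35.7 FPKM in WT, a log2 change of 0.43 ± 0.09 (SE, n = 2 per group; limma, Benjamini-Hochberg adjusted p = 0.023). Mrpl49 was at 29.98 and 30.3 against 24.2 and 24.3 FPKM, a log2 change of 0.30 ± 0.08 (SE, n = 2 per group; limma, Benjamini-Hochberg adjusted p = 0.041). Libraries of the same group were nearly equal for Mrpl49. Its call held under 5 of 14 other limma settings and was lost with each library left out, and that of Mrpl10 held under 9. Mrpl12, the protein that forms the stalk together with Mrpl10, was at 194 and 174 FPKM in Cdk8Tg against 233 and 209 FPKM in WT. Its log2 change of -0.26 (95% interval -0.52 to -0.0061, limma) did not pass the test after adjustment (limma, Benjamini-Hochberg adjusted p = 0.11). After median-of-ratios scaling Mrpl12 was called, with a log2 change of -0.42 (limma, Benjamini-Hochberg adjusted p = 0.045), and Mrpl10 was not, with 0.27 (adjusted p = 0.069). The changes of these stalk partners had opposite signs on both scales. Mrpl16 and Mrpl50 came close to the threshold, with log2 changes of 0.34 and 0.31 (limma, Benjamini-Hochberg adjusted p = 0.052 and 0.0503, neither called).

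In the small subunit Mrps28 had the deepest fall. It was at 45.1 and 39.4 FPKM in Cdk8Tg against 84.1 and 86.0 FPKM in WT, a log2 change of -0.996 ± 0.095 (SE, n = 2 per group; limma, Benjamini-Hochberg adjusted p = 0.0053). Both groups were tight and far apart. Of the 24 called members, Mrps28 was the one whose call held under all 14 other limma settings, each left-out library included. It lies on chromosome 3 at 8802146 to 8923918 of GRCm38, and none of its 31-base stretches occur in another annotated gene. Mrps35, a mitochondrial addition to the small subunit, was at 43.0 and 36.4 FPKM in Cdk8Tg against 69.3 and 67.3 FPKM in WT, a log2 change of -0.77 ± 0.10 (SE, n = 2 per group; limma, Benjamini-Hochberg adjusted p = 0.010).

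Mrps15, the relative of a bacterial protein that binds ribosomal RNA early in assembly, was at 38.2 and 34.1 FPKM in Cdk8Tg against 57.5 and 52.4 FPKM in WT. Mrps36 was at 77.5 and 71.8 against 115.3 and 108.5 FPKM. The groups were apart in both genes, with log2 changes of -0.59 and -0.58. Despite its name, the Mrps36 protein is known as a part of the alpha-ketoglutarate dehydrogenase complex of the TCA cycle. Mrps21, among the most abundant members, was at 171 and 172 against 230 and 228 FPKM, a log2 change of -0.42. Mrps23, the other small subunit gene above 100 FPKM, was at 128 and 120 against 117 and 93.3 FPKM without a call. Mrps34, Mrps24 and Mrps14 changed by -0.42, -0.34 and -0.32. Mrps34 was at 32.9 and 32.0 against 45.0 and 42.7 FPKM. Its value is uncertain, because 73.8% of its 31-base stretches occur in other genes, mainly Nme3, which overlaps it on the same strand and itself rose by 0.40. Mrps24 shares 226 exon bases on the same strand with Urgcp. Among all members, 8 overlap another gene on the same strand and 27 on the opposite strand, and the strand setting of the counting is not stated.

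Mrps6, the relative of a bacterial protein of the small subunit's platform, was the 1 small subunit gene called as a rise. It was at 68.0 and 71.2 FPKM in Cdk8Tg against 42.2 and 38.8 FPKM in WT, a log2 change of 0.77 ± 0.08 (SE, n = 2 per group; limma, Benjamini-Hochberg adjusted p = 0.0068). Both Cdk8Tg values exceeded both WT values. The gene lies on chromosome 16 at 92058270 to 92112227 of GRCm38. It shares 305 exon bases on the same strand with Gm49711, which was not measured, and 159 with Slc5a3, which was at 0.88 and 1.07 FPKM in Cdk8Tg against 0.72 and 0.76 FPKM in WT. The call of Mrps6 held under 13 of 14 other limma settings and was lost without WT replicate 2.

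On the deposited scale the Mrps18 paralogs were not called. Mrps18a, Mrps18b and Mrps18c share descent from a bacterial protein, and Mrps18a, like Mrps30, sits in the large subunit in spite of its name. Mrps18a was at 53.2 and 54.0 FPKM in Cdk8Tg against 63.3 and 64.2 FPKM in WT, a log2 change of -0.25 that missed the threshold (limma, Benjamini-Hochberg adjusted p = 0.065) and passed it after median-of-ratios scaling, at -0.41 (adjusted p = 0.022). Mrps18b was at 31.6 and 30.4 against 33.1 and 25.9 FPKM, and Mrps18c at 64.6 and 52.2 against 56.6 and 56.9 FPKM. The groups overlapped in Mrps18b and Mrps18c, with log2 changes of 0.079 (95% interval -0.24 to 0.40, limma) and 0.031 (-0.26 to 0.33). Differences between these paralogs were not tested. Mrps30 was at 19.0 and 18.2 against 20.5 and 24.5 FPKM, a log2 change of -0.26 without a call (limma, Benjamini-Hochberg adjusted p = 0.13). Of the 31-base stretches of Mrps18b and Mrps18c, 31.6% and 34.5% occur in other genes, so their values are less certain. Placing Mrps18a and Mrps30 with the large subunit and leaving Mrps36 out gave 13 falls and 2 rises of 49 large subunit genes and 7 falls and 1 rise of 26 small subunit genes. Of all rows 7.98% were falls and 16.9% rises.

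Falls were found among proteins of both origins. Of the 48 members with a bacterial relative, 14 fell and 2 rose, with a median log2 change of -0.17. Of the 28 members without one, 7 fell and 1 rose, with a median of -0.22. Falls over all rows were 7.98% and rises 16.9%. On the equal-sum scale the counts were 8 falls and 7 rises of 48, and 5 and 5 of 28, beside 5.49% falls and 41.2% rises of all rows. A further 7 mitochondrial ribosomal proteins carry other names and were described apart. Of these, Chchd1, at 78.0 and 75.2 FPKM in Cdk8Tg and 108.8 and 104.0 FPKM in WT, and Ict1, a peptide release protein built into the large subunit, at 40.1 and 34.5 against 48.2 and 50.8 FPKM, fell by 0.47 and 0.40 on the log2 scale. Dap3, Ptcd3, Aurkaip1, Gadd45gip1 and Mrp63 were not called, with log2 changes from -0.28 to 0.033. None of the 7 rose (0 at an unadjusted p under 0.05 by limma and 0 in the authors' deposited table).

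Levels differed widely between members. Mean FPKM over the 4 libraries spanned 66.3-fold among large subunit genes, from Mrpl17 to Mrpl42, and 19.8-fold among small subunit genes, from Mrps25 to Mrps21. Mrpl17 was at 4.91 and 4.51 FPKM in Cdk8Tg against 5.09 and 5.501 FPKM in WT, and Mrpl19 at 7.0 and 7.44 against 6.44 and 5.40 FPKM. These were the 2 members with a mean under 10 FPKM. Of the 31-base stretches of Mrpl19, 37.9% occur in other genes, mainly Gcfc2 on the opposite strand, so its value is less certain. Above 100 FPKM stood 7 members, Mrpl42, Mrpl12, Mrpl30, Mrpl33, Mrpl18, Mrps21 and Mrps23. The median member had a mean of 45.4 FPKM in the large and 39.5 FPKM in the small subunit. Across the 76 members, the order of levels was largely shared between the group means (Spearman's rho 0.932, a description over genes that share the same libraries). Mrps10, the second lowest small subunit gene, was at 14.7 and 17.9 against 18.3 and 18.5 FPKM, a log2 change of -0.17 without a call. Mrps25, at 10.6 and 9.76 against 10.4 and 9.60 FPKM, shares 68.9% of its 31-base stretches with other genes, mainly Nr2c2 on the opposite strand.

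The summed level of each subunit was lower in both Cdk8Tg libraries. Large subunit genes added up to 2574 and 2348 FPKM in Cdk8Tg against 3234 and 3006 FPKM in WT, and small subunit genes to 1364 and 1282 against 1563 and 1490 FPKM. The Cdk8Tg mean was 0.789 times the WT mean for the large and 0.867 times for the small subunit. The ratio of large to small subunit sums was 1.89 and 1.83 in Cdk8Tg and 2.07 and 2.02 in WT. Without Mrpl42 it was 1.71 and 1.68 against 1.77 and 1.74. The groups stayed apart in that ratio, at a smaller distance. As a share of each library's FPKM sum, the large subunit took 0.574% and 0.533% in Cdk8Tg and 0.633% and 0.592% in WT. The small subunit took 0.304% and 0.291% against 0.306% and 0.293%, with the groups overlapping.

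**Figure D3:**
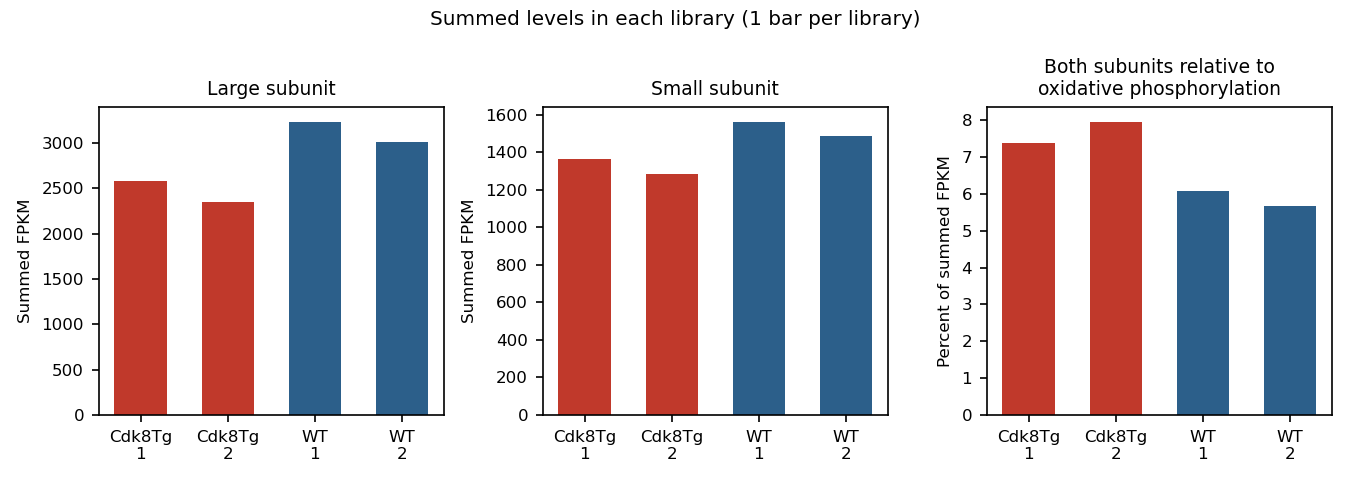
Summed FPKM of the large subunit genes (left) and the small subunit genes (middle), and the sum of both as a percentage of the summed FPKM of nuclear oxidative phosphorylation genes (right), with 1 bar per library, red for Cdk8Tg and blue for WT. Both sums are lower in the Cdk8Tg libraries, and the percentage is higher, at 7.38 and 7.96 against 6.08 and 5.67.

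The nuclear genes of oxidative phosphorylation, whose complexes also contain the products of mitochondrial translation, mostly fell. Of 79 such genes 69 fell and 0 rose (0 at an unadjusted p under 0.05 by limma and 0 in the authors' deposited table), with a median log2 change of -0.67. Of all rows 7.98% fell and 16.9% rose. Cox7a1, a muscle subunit of cytochrome c oxidase, was at 1095 and 991 FPKM in Cdk8Tg against 2645 and 2955 FPKM in WT, and its log2 change of -1.42 exceeded in size that of each mitochondrial ribosomal protein gene. Sdhc and Ndufs7 changed by -0.80 and -0.92. The summed FPKM of the list was 53336 and 45608 in Cdk8Tg and 78858 and 79344 in WT, a mean ratio of 0.625. The mitochondrial ribosomal protein genes therefore amounted to 7.38% and 7.96% of that sum in Cdk8Tg and to 6.08% and 5.67% in WT. With quantile normalization the list had 37 falls, 1 rise and a median of -0.33, beside medians of -0.24 and -0.16 for the large and small subunits. On that scale 8.74% of all rows fell and 8.34% rose. The equal-sum scale gave 58 falls and 2 rises, beside 5.49% and 41.2% of all rows. Over this and the 6 lists of related genes, 83 genes were called, against 4 without WT replicate 1, 0 without WT replicate 2 (81 at an unadjusted p under 0.05 by limma) and 21 with no filter on low values. In the same fits 628, 287 and 1055 of all rows were called, and the median log2 change over these lists was -0.31, -0.28 and -0.28, beside -0.28 with all libraries. A difference between these lists was not tested.

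**Figure D4:**
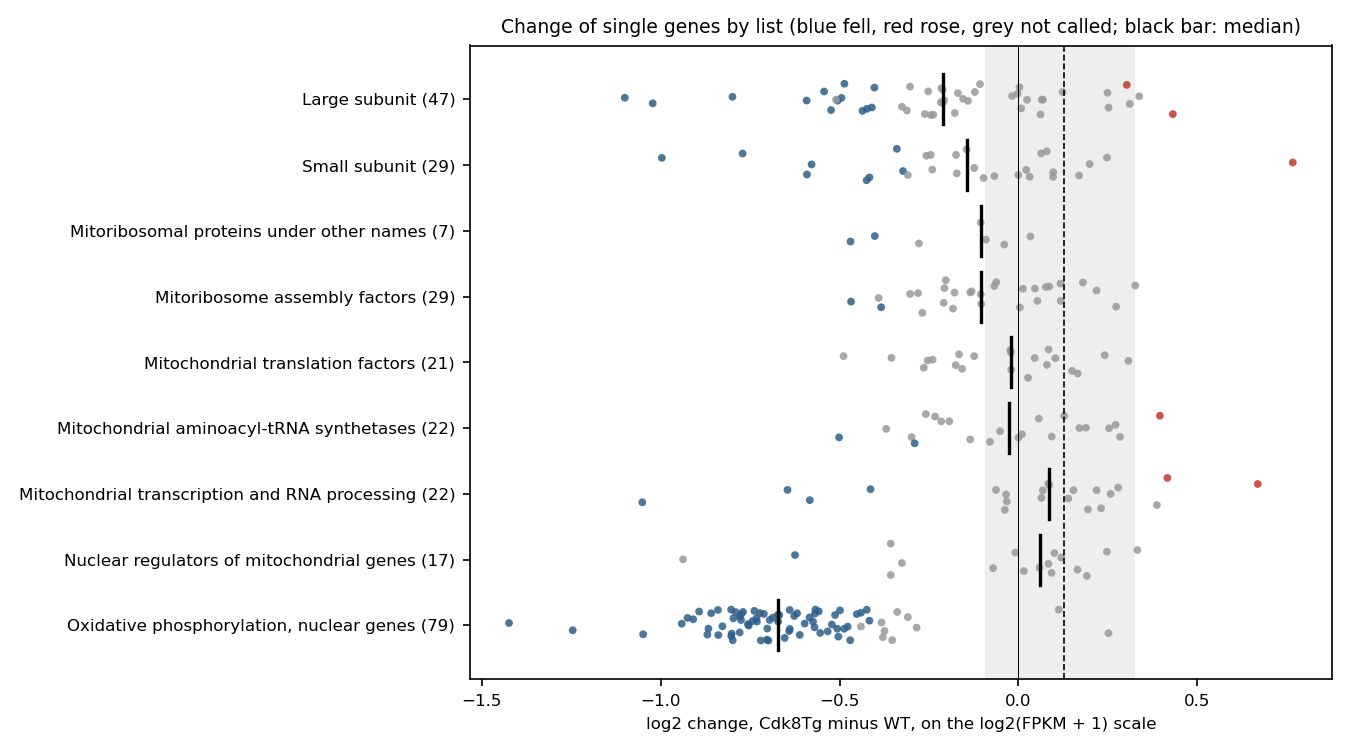
Log2 change (Cdk8Tg minus WT, on the log2(FPKM + 1) scale) of every tested gene in each list, with the number tested in brackets. Blue points fell, red points rose, grey points were not called, black bars are list medians, the dashed line is the median of all 11888 rows (0.13) and the grey band spans their middle quartiles; the oxidative phosphorylation genes centre on -0.67 and both subunits lie between them and the remaining lists.

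Genes that build or run the mitochondrial ribosome were read beside the 7.98% of all rows that fell and the 16.9% that rose. Of 29 assembly factors 2 fell (6.90%) and 0 rose (6 and 1 at an unadjusted p under 0.05 by limma, 1 and 0 in the authors' deposited table), with a median log2 change of -0.10. The falls were Malsu1, which keeps the large subunit from joining too early, at 14.8 and 12.5 FPKM in Cdk8Tg and 19.5 and 18.8 FPKM in WT, and the RNA methyltransferase gene Mrm1, at 7.42 and 6.93 against 10.3 and 9.04 FPKM. Of 21 translation factors and their partners 0 fell and 0 rose (4 and 1 at an unadjusted p under 0.05 by limma, 2 and 0 in the authors' deposited table), with a median of -0.021. Lrpprc, which stabilizes mitochondrial messenger RNA, was at 49.2 and 41.8 against 58.4 and 58.2 FPKM, with both Cdk8Tg values below both WT values but no call (limma, Benjamini-Hochberg adjusted p = 0.056).

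Of 22 genes of mitochondrial aminoacyl-tRNA synthesis, which charge the tRNAs, 2 fell and 1 rose, with a median log2 change of -0.026. The seryl-tRNA synthetase gene Sars2 was at 5.10 and 4.87 FPKM in Cdk8Tg and 8.24 and 6.75 FPKM in WT, Kars, whose product also serves the cytosol, changed by -0.29, and Pet112, of the enzyme that makes glutaminyl-tRNA, rose by 0.40. Of 22 genes of mitochondrial transcription and RNA processing 4 fell and 2 rose, with a median of 0.085. Over all rows 7.98% fell and 16.9% rose on this deposited scale. Fastk, of a family that acts on mitochondrial RNA, was at 60.7 and 51.1 against 118.0 and 115.1 FPKM, a log2 change of -1.05 ± 0.11 (SE, n = 2 per group; limma, Benjamini-Hochberg adjusted p = 0.0057). Tbrg4 and Hsd17b10, the latter a subunit of mitochondrial RNase P, changed by -0.65 and -0.58, while the rises were Pde12, which removes poly(A) tails, by 0.67 and Rexo2, by 0.42. The balance of these lists followed the scale. With the equal sum, where 5.49% of all rows fell and 41.2% rose, 0 assembly factors, 0 translation factors and 0 genes of tRNA charging fell (1, 0 and 1 at an unadjusted p under 0.05 by limma), 4, 4 and 5 rose, and the transcription and RNA processing list had 3 falls and 10 rises. After median-of-ratios scaling, where 12.1% fell and 7.58% rose, 4, 4 and 5 genes fell and 0 rose in the first 3 lists (0, 0 and 1 at an unadjusted p under 0.05 by limma), and the last had 4 falls and 1 rise.

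Known nuclear regulators of mitochondrial genes were mostly not called. Of 17 tested, 1 fell and 0 rose (5 and 2 at an unadjusted p under 0.05 by limma, 3 and 0 in the authors' deposited table), a share of 5.88% falls beside 7.98% of all rows, of which 16.9% rose. The equal-sum scale gave 1 fall and 6 rises, beside 5.49% falls and 41.2% rises of all rows. Median-of-ratios scaling gave 4 falls and 0 rises (0 at an unadjusted p under 0.05 by limma), beside 12.1% and 7.58% of all rows. The fall was Ppara, a nuclear receptor for fatty acids, at 13.96 and 11.5 FPKM in Cdk8Tg and 18.7 and 21.5 FPKM in WT. The coactivator Ppargc1a was at 23.2 and 20.6 against 31.1 and 58.7 FPKM, where the WT libraries differed widely, and was not called (limma, Benjamini-Hochberg adjusted p = 0.065). Nrf1, which binds promoters of many mitochondrial genes, was at 4.70 and 4.69 against 4.69 and 4.25 FPKM, and Gabpa at 13.9 and 15.3 against 13.7 and 13.0 FPKM. Their log2 changes were 0.059 and 0.12 without a call.

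Many of these genes start close to a neighbour on the other strand. By the GENCODE M21 annotation, 25 members had a protein-coding gene that starts within 1000 bases on the opposite strand and runs the other way, in 24 pairs, since Mrpl46 and Mrps11 face each other. Where the genes of a pair overlapped at their starts, the limit was 500 bases. Mrpl14 and Tmem63b, which overlap in exons and both fell, are not among these pairs. Both genes of 21 pairs were tested. In 0 of them were both genes called in the same direction (1 pair at an unadjusted p under 0.05 by limma), in 5 the ribosomal protein gene alone was called, in 2 the neighbour alone, and in 1 both were called with opposite sign. Of the 21 neighbours 3 were called, where 24.9% of all rows were. Mrpl2 changed by -0.59 and its neighbour Klc4 by 0.13, and Mrpl37 by -0.51 and Cyb5rl by -0.072. Mrpl49 rose by 0.30 while Fau, which encodes a cytosolic ribosomal protein, changed by -0.070. Mrpl36 changed by -0.33 without a call and Ndufs6, a complex I gene whose start lies 29 bases away, fell by 0.78. The neighbour of Mrps12, Sars2, fell, and Mrps12 itself was not called. The pair called with opposite sign was Mrps34 and Eme2, and the value of Mrps34 is uncertain, as given above.

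**Figure D5:**
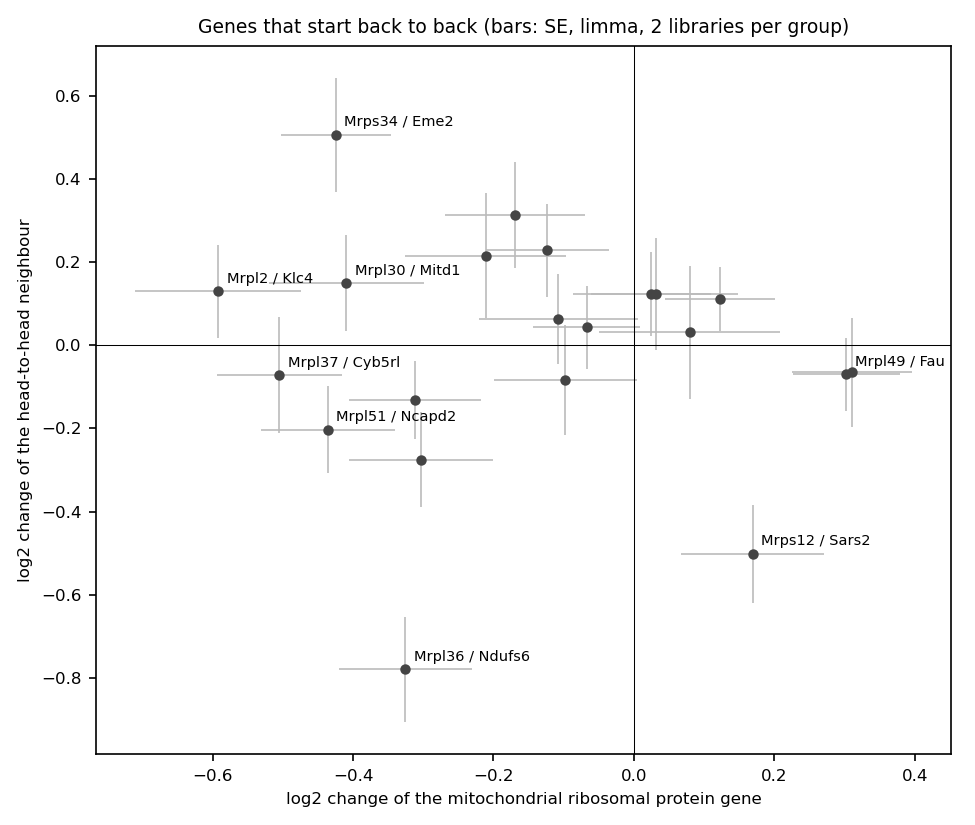
Log2 change (Cdk8Tg minus WT) of a mitochondrial ribosomal protein gene (horizontal axis) against that of the protein-coding gene that starts next to it on the opposite strand (vertical axis) for 21 tested pairs, with bars of 1 SE from limma. Labelled pairs have at least 1 called gene; the pair Mrpl36 and Ndufs6 lies lowest, at -0.33 and -0.78.

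Markers of cell types also moved between the groups. Beside 7.98% falls and 16.9% rises of all rows, 5 of the 8 cardiomyocyte genes fell and 5 of the 7 fibroblast genes rose. The median log2 change of the cardiomyocyte genes was -0.59. All 7 fibroblast genes had both Cdk8Tg values above both WT values, as had 49.2% of all rows. Fibroblast genes summed to 1043 and 1302 FPKM in Cdk8Tg and 861 and 806 FPKM in WT. With quantile normalization 2 cardiomyocyte genes fell and 2 rose, with a median of -0.072, and 4 fibroblast genes rose. On that scale 8.74% of all rows fell and 8.34% rose. Summed endothelial markers were at 288 and 259 against 296 and 298 FPKM, smooth muscle and pericyte markers at 591 and 887 against 501 and 513, and macrophage and leukocyte markers at 110 and 138 against 174 and 162. Atrial muscle markers varied within groups, at 861 and 2416 FPKM in Cdk8Tg and 670 and 225 FPKM in WT, as did erythroid markers, at 4558 and 3198 against 4367 and 6726 FPKM. In the macrophage and leukocyte list 2 genes fell. Of the 7 smooth muscle and pericyte genes 1 rose and 6 were not called, with a median log2 change of 0.33 and the highest at 4.65. Of the 4 atrial muscle genes 1 rose. Adipocyte markers were at 0.42 and 22.0 against 1.72 and 0.062 FPKM. No measured marker was at 0 in all 4 libraries. The part of these markers in the changes of mitochondrial ribosomal protein genes was not tested.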

How the data were processed

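Sample titles gave each group and replicate number, and columns were matched to samples by name. TopHat (1.0.0), Cufflinks, Cuffdiff and mm10 are named in the submitters' processing notes. For the versions of the last tools, the annotation, the library scaling and the strand, the sources used here say nothing. The authors deposited FPKM per gene and library, and a comparison table with an FPKM per group, a p-value and a q-value, per the file headers. Its fold changes and test statistics were not used.

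As FPKM cannot enter a count model, log2(FPKM + 1) of all 4 libraries was fitted with limma 3.58.1 (R 4.3.3), with a trended variance, 2 residual degrees of freedom and no covariates. The filter was a mean of 1 FPKM, and the threshold a Benjamini-Hochberg adjusted p-value of 0.05. Log2 changes are Cdk8Tg minus WT and understate those of low genes. With 2 libraries against 2, an exact permutation test cannot go below p = 0.333, so none was used. In a simulation of this comparison with 11888 genes, 100 of 100 genes changed by 1 and 85 of 100 changed by 0.5 (log2) were called, with 10 calls among 11688 unchanged genes. Spread in the simulation depended on level alone and few genes were changed, whereas 24.9% of all rows were called in the real comparison. These numbers therefore need not hold for the real libraries.

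Positions, exon overlaps and shared 31-base stretches came from GENCODE M21 (GRCm38, the sequence of mm10), where all 76 members matched by symbol. Depth came from FPKM under 0.1 of genes with 1 transcript of more than 800 bases (322 to 346 genes per library). Members, lists and tests were chosen with earlier results of these data known. Any member may be named: the up to 6 largest falls and rises per subunit, the 3 most and 2 least abundant, the Mrps18 paralogs, Mrps30 and Mrps36 are given in full, with up to 3 genes per direction of each list. Other genes were named with their values already known. The alternatives tried were pseudocounts of 0.1 and 5, no filter or a minimum of 5 FPKM, 3 other scalings, 2 other variance models, a replicate block, leaving out each library, and the authors' calls.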

Additional observations from a re-analysis of the deposited data

How the results depend on the processing

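The number of rows called was 2958 and became 1055 with no filter on low values, 5552 on the equal-sum scale, 1730 in the authors' deposited table and 287 to 2380 with a library left out. Large subunit calls were 15, with 5 under no filter and 0 to 11 with a library left out; small subunit calls were 9, with 1 to 8 when a library was left out. Calls in the related lists were 83, with 21 under no filter and 0 to 90 with a library left out. Fits with a library left out have 1 residual degree of freedom, and the lone sample takes its spread from the other group. The replicate numbers are not stated to pair libraries, and deviations of same-numbered libraries correlated at -0.026; with the replicate number as a block, 2825 rows, 16 large subunit genes, 8 small subunit genes and 79 genes of the related lists were called. Of all 76 members, 53 had a log2 change below 0, against 38 on the equal-sum scale, 66 after median-of-ratios scaling and 60 with quantile normalization. Of all 11888 rows tested, 4027, 2285, 6106 and 5745 were below 0 in the same order. Among the 26 members given in full, the sign turned on the equal-sum scale for Mrpl17 (0.023) and Mrps10 (0.014), after median-of-ratios scaling for Mrps25 (-0.13), Mrps18b (-0.078) and Mrps18c (-0.13), with quantile normalization for Mrps25 (-0.11), and on the FPKM of the authors' deposited table for Mrps25 (-0.12), Mrps18b (-0.080) and Mrps18c (-0.11). With a library left out, the log2 change ran from -0.034 to 0.077 for Mrps25, from -0.092 to 0.25 for Mrps18b and from -0.12 to 0.18 for Mrps18c. The causes were not tested.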
